A study of Mus musculus with 12 samples.

Results

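The 34 genes described here encode the enzymes that make cholesterol and fatty acids, together with the proteins that control their transcription through the sterol regulatory element-binding proteins (SREBPs). They were taken as a list of names from the pathway and looked up in a gene count table of 16283 genes. All 34 were in the table, and all 34 passed the filter on low counts that left 13601 genes to test. They were split by textbook role into 18 genes of the mevalonate and sterol branch, 10 genes of the fatty acid branch, and 6 genes in neither branch (Srebf1, Srebf2, Scap, Insig1, Insig2 and the sterol carrier Stard4). RNA-seq was run on 12 libraries from 4T1, a BALB/c mouse cell line derived from a mammary carcinoma. The design crossed 3 cell populations with 2 treatments, with 2 libraries in each of the 6 groups. The populations carried a guide RNA against Cebpd (sgRNA1), another guide against Cebpd (sgRNA2), or a guide against Rosa26, a locus commonly targeted as a neutral control. Cebpd encodes C/EBP-delta, a leucine zipper transcription factor of inflammatory responses. Each population was given interferon-gamma (IFN-gamma) at 20 ng/ml for 24 hours or vehicle. The labels do not say whether a guide population was a clone or a pool, nor whether both libraries of each group were grown as separate cultures. The p-values therefore measure only the spread between these libraries, which may be technical.

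SREBPs are made as membrane proteins of the endoplasmic reticulum and held there by Scap, the sterol sensor, bound to Insig proteins. When membrane sterol is low, Scap carries the SREBP to the Golgi, where proteases release its transcription factor domain. SREBP-2, the product of Srebf2, acts mainly on genes of cholesterol synthesis, and the SREBP-1 forms, from Srebf1, act more on genes of fatty acid synthesis. The mevalonate and sterol branch turns acetyl-CoA into squalene and then, through lanosterol, into cholesterol, while the fatty acid branch turns acetyl-CoA into palmitate and then lengthens and desaturates it. In macrophages, interferon signalling is known to lower sterol synthesis.

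Total counts per library ran between 16912710 and 24784371, and the lowest count of any member in any library was 134. Levels are given in CPM, read counts rescaled to a common library total, on library sizes scaled by the trimmed mean of M-values (TMM), and differences as log2 fold changes with their standard error (SE). The test is the quasi-likelihood one of edgeR, adjusted by the Benjamini-Hochberg method over the 13601 genes, and a gene is called at an adjusted p below 0.05. All adjusted p-values are from this test unless another fit is named. Cebpd mRNA, as a check of the labels, had 45.9 and 45.6 CPM in sgRNA1, 30.2 and 29.4 CPM in sgRNA2 and 53.5 and 49.1 CPM in Rosa26 libraries with IFN-gamma. With vehicle it had 13.6 and 13.4 CPM in sgRNA1, 10.6 and 8.51 CPM in sgRNA2 and 9.09 and 7.13 CPM in Rosa26 libraries. The guide populations (mean of both) were lower than Rosa26 with IFN-gamma (-0.48 ± 0.07, adjusted p = 1.37e-05) and higher with vehicle (0.49 ± 0.11, adjusted p = 0.000672), and with both guides as 1 group neither was called (adjusted p = 0.163 and 0.133). A guide that cuts coding sequence need not lower the mRNA, so these levels do not show whether the protein was lost. Markers of mammary epithelium (Krt8, Krt18, Krt19, Epcam and Cdh1) were all present, with a summed level of 2012 to 3145 CPM per library. Markers of leukocytes summed to between 0.0392 and 0.567 CPM, of endothelium to between 0 and 0.483 CPM and of adipocytes to between 0 and 1.70 CPM, and the defining markers Cd3e, Kdr, Adipoq and Plin1 were not among the 16283 genes. Fibroblast markers (Col1a1 and Pdgfra; Pdgfrb and Dcn were not among the genes) summed to 14.1 to 32.2 CPM and basal or mesenchymal markers (Krt14 and Vim, without Krt5) to 1172 to 2337 CPM, and their part in the results was not tested. In bulk RNA, fewer cells that express a gene and less of its RNA per cell cannot be told apart. Ribosomal protein genes held 7.87% and 7.41% of counts in sgRNA1, 11.6% and 10.5% in sgRNA2 and 7.82% and 7.84% in Rosa26 libraries with IFN-gamma. With vehicle they held 11.5% and 11.6% in sgRNA1, 13.2% and 13.8% in sgRNA2 and 8.83% and 8.93% in Rosa26 libraries. Mitochondrial genes held 0.540% to 0.544% in sgRNA1, 0.533% to 0.628% in sgRNA2 and 1.03% to 1.18% in Rosa26 libraries with IFN-gamma. With vehicle they held 0.814% to 0.839% in sgRNA1, 1.12% to 1.14% in sgRNA2 and 0.620% to 0.670% in Rosa26 libraries. Both shares moved with the groups, and their part in the differences below was not tested.

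The summed level of the pathway was highest in Rosa26 cells with vehicle. This sum was lower in guide populations than in Rosa26 cells of the same treatment, and lower with IFN-gamma in each population. In sgRNA2 cells the fall with IFN-gamma was led by Scd2 (mean 1014 CPM with vehicle and 786 CPM with IFN-gamma). The sterol branch there summed to 1352 CPM with vehicle and 1379 CPM with IFN-gamma. Single members did not all follow the summed level of the pathway. In sgRNA2 cells 15 were higher and 11 lower with IFN-gamma, beside 30.5% and 29.2% of all genes. Under upper quartile scaling that split was 11 higher and 14 lower. With IFN-gamma, 8 sterol genes were higher and 7 lower in guide populations than in Rosa26 cells, beside 32.5% and 33.4% of all genes. Of the 34 members, 22 had their highest group mean in Rosa26 cells with vehicle, 5 in Rosa26 cells with IFN-gamma, 4 in sgRNA1 cells with vehicle, 2 in sgRNA2 cells with vehicle and 1 in sgRNA2 cells with IFN-gamma. The lowest group mean fell in sgRNA2 cells with vehicle for 16 members. The summed level of the 34 members was 4059 ± 71.5 CPM in sgRNA1, 3503 ± 16.7 CPM in sgRNA2 and 5026 ± 19.0 CPM in Rosa26 cells with IFN-gamma (mean ± SD, n = 2 each). With vehicle it was 5111 ± 36.3 CPM in sgRNA1, 3676 ± 31.7 CPM in sgRNA2 and 7245 ± 5.04 CPM in Rosa26 cells.

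**Figure D1:**
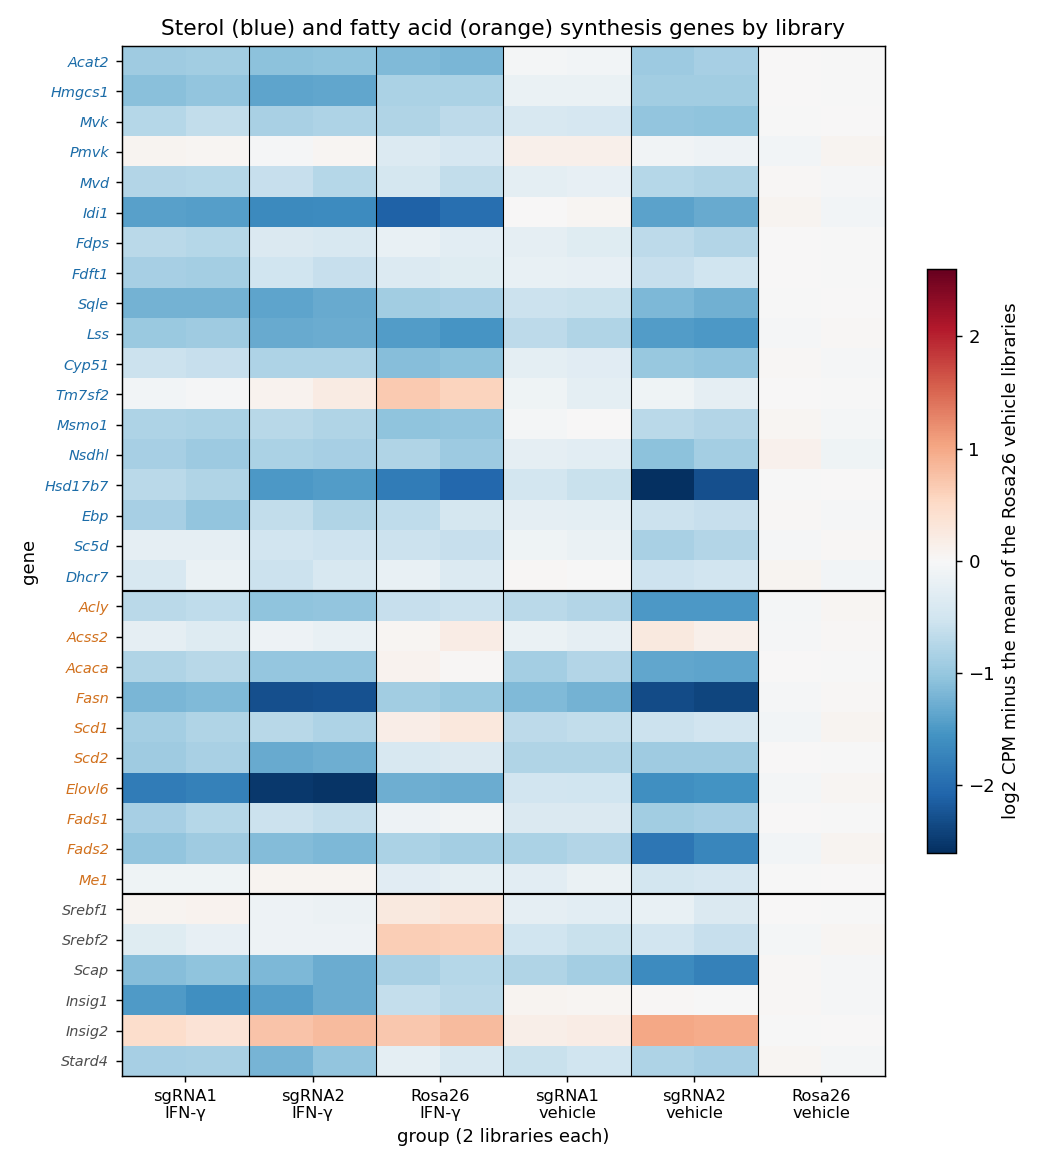
Level of each of the 34 members (rows) in each of the 12 libraries (columns, 2 per group), as log2 CPM minus the mean of the 2 Rosa26 vehicle libraries. Blue names are the 18 sterol genes, orange names the 10 fatty acid genes and grey names the other 6. Blue cells, lower than Rosa26 with vehicle, fill most of the map, Insig2 is red in all 5 other groups, and Fasn is darkest in sgRNA2 cells.

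With vehicle, 31 of the 34 members differed between the Cebpd guide populations (mean of both guides) and Rosa26 cells, 1 higher and 30 lower. Among all tested genes 67.7% were called in this comparison, 34% higher and 33.7% lower, so a call alone says little here. The sterol branch had 17 of 18 genes lower and none higher, with a median log2 fold change of -0.50, and the fatty acid branch 9 of 10 lower and none higher, with a median of -0.95, where the median over all genes was 0.03. Upper quartile scaling moved that median by 0.14 and gave 3 members higher and 28 lower. The mean of both guides covers unlike populations. Against Rosa26 with vehicle, the sterol median was -0.22 in sgRNA1 cells, with 13 of 18 genes lower. In sgRNA2 cells it was -0.85, with 17 of 18 lower. Fatty acid medians were -0.70 in sgRNA1 cells (10 of 10 lower) and -1.14 in sgRNA2 cells (9 lower, 1 higher). The same scaling raised the all-gene value by 0.10 for sgRNA1 and by 0.17 for sgRNA2 cells. The fit with 1 term per group measures error only between libraries of the same population. With the 4 libraries of both guides as 1 group, so that the difference between guides counts as error, 19 members were called and all 19 were lower (7 sterol, 9 fatty acid, 3 others), against 32.3% of all genes called.

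With IFN-gamma, guide populations had less fatty acid branch RNA than Rosa26 cells and a split sterol branch. Of the 34 members 31 were called between guide populations and Rosa26 cells, 9 higher and 22 lower, against 65.9% of all genes (32.5% higher and 33.4% lower). The sterol branch had 8 genes higher and 7 lower, with a median of -0.02, while the fatty acid branch had 1 higher and 9 lower, with a median of -0.64, and all 6 other members were lower. The median over all genes was 0.02. Among the 6 other members, Insig2 was not called under upper quartile scaling (-0.08, adjusted p = 0.135). Its difference was -0.12 without Rosa26 IFN-gamma replicate 2 and -0.11 without sgRNA2 IFN-gamma replicate 1. With both guides as 1 group, 10 members were called, 1 higher and 9 lower, against 32.1% of all genes: 2 sterol genes (Pmvk higher, Tm7sf2 lower), 4 fatty acid genes (Acaca, Scd1, Scd2 and Fads1, all lower) and 4 others (Srebf1, Srebf2, Insig1 and Stard4, all lower).

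IFN-gamma itself lowered the sterol branch in Rosa26 cells. Against vehicle, 31 members were called, 5 higher and 26 lower, against 70.4% of all genes (36.4% higher and 34.1% lower). The sterol branch had 17 genes lower and 1 higher, with a median of -0.77. In the fatty acid branch 6 genes were lower, 1 was higher and 3 were not called, with a median of -0.33. In the fit with both guides as 1 group, 20 members were called, 3 higher and 17 lower, against 42.8% of all genes. In sgRNA1 cells IFN-gamma was followed by 23 members lower and 4 higher, against 61.4% of all genes called (31.7% higher and 29.6% lower), with a sterol median of -0.48 and a fatty acid median of -0.09. In sgRNA2 cells 11 members were lower and 15 higher, against 59.7% of all genes called (30.5% higher and 29.2% lower), with medians of 0.10 and 0.19. Under upper quartile scaling, which moved the median of all genes in sgRNA2 cells by -0.12, that split was 11 higher and 14 lower, so the direction of small changes in sgRNA2 cells depends on the scaling. The responses of the 2 guide populations share no library: 3 members (8.82%) were higher in both, beside 20% of all genes, and 9 (26.5%) were lower in both, beside 16.6% of all genes. Another 9 (26.5%) were called in opposite directions, beside 6.51% of all genes.

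The response to IFN-gamma differed between the guide populations and Rosa26 cells for most members. The interaction (response of the guide populations, mean of both, minus the response of Rosa26 cells) was called for 28 of 34 members, 22 positive and 6 negative, against 63.9% of all genes (30.5% positive and 33.4% negative). It was positive for 14 sterol genes and negative for 1, with a median of 0.55, and positive for 7 and negative for 2 fatty acid genes, with a median of 0.16. With both guides as 1 group, 5 members were called, against 19.6% of all genes: Lss, Cyp51 and Me1 positive and Scd1 and Insig1 negative. The interaction of the other 23 therefore rests on counting each guide as its own group.

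**Figure D2:**
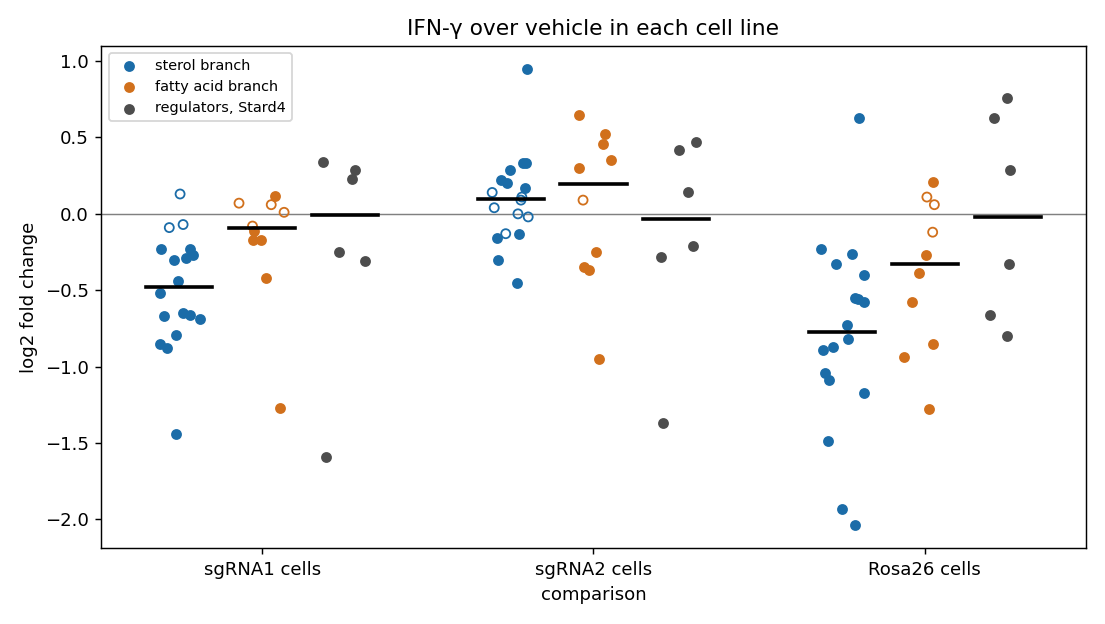
Log2 fold change of IFN-gamma over vehicle in sgRNA1, sgRNA2 and Rosa26 cells for each member (points: sterol branch blue, fatty acid branch orange, the other 6 grey; filled where called at an adjusted p below 0.05), with bars at the median. The sterol median is -0.48 in sgRNA1 cells, 0.10 in sgRNA2 cells and -0.77 in Rosa26 cells.

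The RefSeq promoter table (GRCm38.p6; 250 bases before to 50 after each gene's start) matched 27 of the 34 members, 15 of them sterol and 7 fatty acid genes, and the letters below were counted in it on either strand. The NF-Y box CCAAT was in 14 of 15 sterol genes (93.3%) and 4 of 7 fatty acid genes (57.1%), beside 43.2% of the 11123 genes of the table. The Sp1 box GGGCGG was in 93.3% of sterol and 57.1% of fatty acid genes, beside 66.2% of all. A core of the sterol regulatory element, TCACNCCAC, was in Hmgcs1 alone (3.70% of the members, beside 1.38% of all genes). The C/EBP letters TTGCNNAA were in Dhcr7 and Nsdhl (7.41% of members, beside 10.1% of all genes), and the gamma-activated site TTCNNNGAA (8.40% of all genes) and the interferon-stimulated response element (3.79% of all genes) were each in Ebp alone. A match is a description of these windows, and its absence says nothing of a factor. Shown are 3 sterol genes described below (Hmgcs1 holds the element core, and Idi1 and Hsd17b7 had the greatest falls of that branch with IFN-gamma in Rosa26 cells) and, for contrast, the fatty acid genes Fasn and Elovl6. Capitals mark CCAAT or its reverse complement ATTGG, and the element core in Hmgcs1. The first 250 bases lie before the start on the gene's strand.
Hmgcs1 (GRCm38.p6, chr13:119690101-119690400, plus strand): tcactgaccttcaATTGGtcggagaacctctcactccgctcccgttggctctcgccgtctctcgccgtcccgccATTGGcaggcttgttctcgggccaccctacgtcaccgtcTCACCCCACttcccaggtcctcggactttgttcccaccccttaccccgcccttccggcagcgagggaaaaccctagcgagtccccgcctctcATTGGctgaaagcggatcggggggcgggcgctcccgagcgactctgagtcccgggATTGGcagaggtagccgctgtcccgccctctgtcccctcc
Idi1 (GRCm38.p6, chr13:8885356-8885655, plus strand): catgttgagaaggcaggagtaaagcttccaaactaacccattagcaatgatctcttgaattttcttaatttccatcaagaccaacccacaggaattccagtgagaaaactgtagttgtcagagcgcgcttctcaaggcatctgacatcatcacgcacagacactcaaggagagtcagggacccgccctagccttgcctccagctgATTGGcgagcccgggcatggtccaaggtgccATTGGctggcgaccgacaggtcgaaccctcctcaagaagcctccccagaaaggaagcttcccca
Hsd17b7 (GRCm38.p6, chr1:169969156-169969455, minus strand): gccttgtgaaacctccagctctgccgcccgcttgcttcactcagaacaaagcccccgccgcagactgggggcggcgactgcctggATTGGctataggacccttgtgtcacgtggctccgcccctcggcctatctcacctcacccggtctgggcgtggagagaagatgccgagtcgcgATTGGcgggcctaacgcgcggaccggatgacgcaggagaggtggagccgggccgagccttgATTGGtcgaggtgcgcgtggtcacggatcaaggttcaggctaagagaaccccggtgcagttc
Fasn (GRCm38.p6, chr11:120824498-120824797, minus strand): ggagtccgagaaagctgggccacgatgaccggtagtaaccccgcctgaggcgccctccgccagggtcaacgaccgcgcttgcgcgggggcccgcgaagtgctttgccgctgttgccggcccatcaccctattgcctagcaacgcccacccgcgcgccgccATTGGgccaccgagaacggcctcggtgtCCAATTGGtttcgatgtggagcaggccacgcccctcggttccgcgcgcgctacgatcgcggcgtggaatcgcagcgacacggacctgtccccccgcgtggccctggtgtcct
Elovl6 (GRCm38.p6, chr3:129532136-129532435, plus strand): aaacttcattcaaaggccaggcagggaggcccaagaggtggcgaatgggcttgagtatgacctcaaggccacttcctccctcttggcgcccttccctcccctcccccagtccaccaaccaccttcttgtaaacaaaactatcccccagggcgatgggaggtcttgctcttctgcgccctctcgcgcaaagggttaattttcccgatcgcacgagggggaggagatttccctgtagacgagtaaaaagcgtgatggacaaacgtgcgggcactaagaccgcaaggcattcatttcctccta

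Hmgcs1 held 4 boxes and the core, Hsd17b7 held 3 boxes and Idi1 held 2. Fasn held 3 boxes, of which 2 on opposite strands overlap in the run CCAATTGG, and the Elovl6 window holds none of the capitalised letters.

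Acat2 and Hmgcs1, the first enzymes of the sterol branch, were lower with IFN-gamma in sgRNA1 and Rosa26 cells. Acat2, the cytosolic thiolase that joins acetyl-CoA units, had 111 and 112 in sgRNA1 cells, 99.7 and 101 in sgRNA2 cells and 94.5 and 91.4 in Rosa26 cells with IFN-gamma (CPM). With vehicle, Acat2 had 201 and 199.6 in sgRNA1 cells, 109 and 115 in sgRNA2 cells and 209.9 and 209 in Rosa26 cells. The 2 libraries of sgRNA1 and of Rosa26 with vehicle stood apart from the other groups, and the response of Acat2 to IFN-gamma was -0.85 ± 0.04 in sgRNA1, -0.16 ± 0.04 in sgRNA2 and -1.17 ± 0.04, adjusted p = 3.8e-14 in Rosa26 cells. The fall in sgRNA2 cells was lost without sgRNA2 vehicle replicate 2 (-0.07, adjusted p = 0.289) and without sgRNA2 IFN-gamma replicate 1 (-0.08, adjusted p = 0.215). Against Rosa26, the guide populations were lower with vehicle (-0.48 ± 0.04, adjusted p = 1.06e-09) and slightly higher with IFN-gamma (0.19 ± 0.04, adjusted p = 0.000316). Of the 50-base words of Acat2 transcripts, 39.1% also occur in other genes, chiefly Acat3, whose level was at most 4.71 CPM in any library. Hmgcs1, the HMG-CoA synthase, had 102 and 106 in sgRNA1 cells, 83.7 and 85.0 in sgRNA2 cells and 122 and 123 in Rosa26 cells with IFN-gamma. With vehicle, Hmgcs1 had 190.1 and 190.0 in sgRNA1 cells, 116 and 115 in sgRNA2 cells and 217 and 214 in Rosa26 cells. Hmgcs1 was lower in every IFN-gamma group than in the same cells with vehicle, with log2 fold changes of -0.88 ± 0.04 in sgRNA1, -0.45 ± 0.04 in sgRNA2 and -0.82 ± 0.04 in Rosa26 cells. It was also lower in guide populations than in Rosa26 with IFN-gamma (-0.39 ± 0.04, adjusted p = 2.59e-08), where the fit with both guides as 1 group gave an adjusted p of 0.185.

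Idi1 and Hsd17b7 had the sterol branch's greatest falls with IFN-gamma in Rosa26 cells. Idi1, the isomerase that makes the reactive isoprenoid unit, had 149 and 148 in sgRNA1 cells, 127 and 128 in sgRNA2 cells and 92.6 and 102 in Rosa26 cells with IFN-gamma (CPM). With vehicle, Idi1 had 399.6 and 410.0 in sgRNA1 cells, 153 and 160.2 in sgRNA2 cells and 418 and 379 in Rosa26 cells. The vehicle levels of sgRNA1 and Rosa26 cells overlapped, and sgRNA2 libraries with vehicle lay near those with IFN-gamma. IFN-gamma lowered Idi1 in sgRNA1 cells (-1.44 ± 0.05, adjusted p = 1.08e-13), in sgRNA2 cells (-0.30 ± 0.05, adjusted p = 0.000134) and in Rosa26 cells (-2.04 ± 0.05, adjusted p = 5.78e-16). After IFN-gamma, all 4 guide libraries were above both Rosa26 libraries (0.50 ± 0.05, adjusted p = 4.7e-08), although the call was lost with both guides as 1 group (adjusted p = 0.32 in that fit). Other genes' transcripts share 17.7% of the 50-base words of Idi1. Hsd17b7, a ketosteroid reductase of the late pathway, had 25.6 and 24.3 in sgRNA1 cells, 14.9 and 15.2 in sgRNA2 cells and 11.8 and 10.2 in Rosa26 cells with IFN-gamma. With vehicle, Hsd17b7 had 30.3 and 28.1 in sgRNA1 cells, 6.95 and 8.62 in sgRNA2 cells and 41.7 and 42.1 in Rosa26 cells. Rosa26 cells were the highest of the 3 populations with vehicle and the lowest with IFN-gamma, and sgRNA1 was above sgRNA2 in both. Guide populations were lower than Rosa26 with vehicle (-1.48 ± 0.08, adjusted p = 2.38e-11) and higher with IFN-gamma (0.81 ± 0.09, adjusted p = 4.07e-07), which gave the interaction of greatest size among the members (2.29 ± 0.12, adjusted p = 2.14e-11). The guides differed from each other here, with sgRNA2 below sgRNA1 with vehicle (log2 fold change -1.91 ± 0.11), and the interaction had an adjusted p of 0.0668 with both guides as 1 group.

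The steps from squalene through lanosterol were lower with IFN-gamma in Rosa26 cells and differed among themselves in the guide populations. Sqle, the squalene epoxidase and a rate-controlling step, had 100.2 and 101 in sgRNA1 cells, 91.1 and 95.3 in sgRNA2 cells and 126 and 129 in Rosa26 cells with IFN-gamma (CPM). With vehicle, Sqle had 159.7 and 158 in sgRNA1 cells, 105 and 99.2 in sgRNA2 cells and 236 and 237 in Rosa26 cells. Every guide library lay below the Rosa26 libraries of the same treatment (-0.89 ± 0.04, adjusted p = 4.43e-13 with vehicle). Lss, the lanosterol synthase that closes the ring, had 58.4 and 59.6 in sgRNA1 cells, 46.0 and 46.4 in sgRNA2 cells and 41.4 and 39.5 in Rosa26 cells with IFN-gamma. With vehicle, Lss had 71.2 and 66.6 in sgRNA1 cells, 41.9 and 40.2 in sgRNA2 cells and 111 and 117 in Rosa26 cells. IFN-gamma lowered Lss in Rosa26 cells (-1.49 ± 0.05, adjusted p = 4.04e-14) to below all guide libraries with IFN-gamma. Its interaction was 1.47 ± 0.07 (log2), a call that was kept with both guides as 1 group (adjusted p = 0.0235). Cyp51, the lanosterol demethylase next in order, also had a positive interaction (1.04 ± 0.05, adjusted p = 1.21e-11; adjusted p = 0.0422 with both guides as 1 group). Cyp51 overlaps exons of Akap9 on the other strand, the kit does not mark strand, and Akap9 moved the opposite way in Rosa26 cells with IFN-gamma (0.86 ± 0.05).

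Not every sterol gene fell. Tm7sf2, a sterol reductase, had 43.6 and 44.7 in sgRNA1 cells, 49.0 and 52.8 in sgRNA2 cells and 73.3 and 68.4 in Rosa26 cells with IFN-gamma (CPM). With vehicle, Tm7sf2 had 42.3 and 38.4 in sgRNA1 cells, 42.2 and 38.7 in sgRNA2 cells and 46.1 and 45.6 in Rosa26 cells. It was the 1 sterol gene higher with IFN-gamma in Rosa26 cells (0.63 ± 0.06, adjusted p = 6.05e-08), and was lower in guide populations with IFN-gamma (-0.58 ± 0.05, adjusted p = 2.37e-08). Tm7sf2 shares exon sequence with Vps51 on the same strand, so reads of the 2 genes may not be fully separated. Vps51 moved the other way in Rosa26 cells (-0.45 ± 0.13), and the part of shared reads was not tested. Mvd, the mevalonate diphosphate decarboxylase, had 29.0 and 29.4 in sgRNA1 cells, 32.5 and 29.6 in sgRNA2 cells and 35.6 and 31.4 in Rosa26 cells with IFN-gamma. With vehicle, Mvd had 41.5 and 42.2 in sgRNA1 cells, 29.4 and 28.7 in sgRNA2 cells and 50.4 and 48.0 in Rosa26 cells. With IFN-gamma the Mvd libraries of guide and Rosa26 populations overlapped, and the small difference (-0.16 ± 0.06, adjusted p = 0.032) was lost without any 1 of 6 libraries, among them Rosa26 IFN-gamma replicate 1 (adjusted p = 0.487), and under DESeq2 (adjusted p = 0.066). Fdps, which makes farnesyl diphosphate, had 178 and 172 in sgRNA1 cells, 221 and 217 in sgRNA2 cells and 251 and 239 in Rosa26 cells with IFN-gamma. With vehicle, Fdps had 244 and 232 in sgRNA1 cells, 179 and 171 in sgRNA2 cells and 288 and 288 in Rosa26 cells. IFN-gamma was followed by less Fdps in sgRNA1 cells (-0.44 ± 0.05) and in Rosa26 cells (-0.23 ± 0.04) and by more in sgRNA2 cells (0.33 ± 0.05, all log2), and 26.2% of its 50-base words occur in other genes.

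Fdft1, the squalene synthase, had 78.0 and 77.2 in sgRNA1 cells, 99.1 and 93.3 in sgRNA2 cells and 110.4 and 115 in Rosa26 cells with IFN-gamma (CPM). With vehicle, Fdft1 had 124 and 122 in sgRNA1 cells, 93.9 and 98.6 in sgRNA2 cells and 144 and 139.8 in Rosa26 cells. It was lower in guide populations by the same amount with IFN-gamma (-0.38 ± 0.04, adjusted p = 1.63e-07) and with vehicle (-0.38 ± 0.04, adjusted p = 1.36e-07). Neither was called with both guides as 1 group (adjusted p = 0.0599 and 0.0602). Its exons overlap Ctsb on the other strand. Ebp, the sterol isomerase, had 25.3 and 22.6 in sgRNA1 cells, 29.4 and 26.7 in sgRNA2 cells and 28.8 and 33.3 in Rosa26 cells with IFN-gamma. With vehicle, Ebp had 39.0 and 38.1 in sgRNA1 cells, 31.0 and 30.2 in sgRNA2 cells and 46.4 and 45.1 in Rosa26 cells. The guide and Rosa26 libraries overlapped with IFN-gamma, and that difference (-0.26 ± 0.07, adjusted p = 0.00293) was not called without Rosa26 IFN-gamma replicate 2 (adjusted p = 0.127). The other sterol genes were the mevalonate and phosphomevalonate kinases Mvk and Pmvk, the sterol oxidase Msmo1, the demethylation enzyme Nsdhl, the desaturase Sc5d and the last-step reductase Dhcr7. Against Rosa26 with vehicle, these 6 ranged between -0.73 (Mvk) and 0.01 (Pmvk, not called). In Rosa26 cells IFN-gamma moved them by -1.04 (Msmo1) to -0.26 (Dhcr7), and all 6 calls were lower. Of the 8 sterol genes higher in guide populations with IFN-gamma, Pmvk (0.43 ± 0.06, adjusted p = 1.78e-06) was the 1 that was still called with both guides as 1 group (adjusted p = 0.0102). The Dhcr7 differences, of -0.26 between guide and Rosa26 populations with vehicle and of -0.26 for IFN-gamma in Rosa26 cells, were both lost without Rosa26 vehicle replicate 1 (adjusted p = 0.0837 and 0.109), and the second also without Rosa26 IFN-gamma replicate 2 (adjusted p = 0.116).

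The fatty acid branch was lower in the guide populations with either treatment. Fasn, the fatty acid synthase that builds palmitate, had 348 and 357 in sgRNA1 cells, 163 and 166 in sgRNA2 cells and 424 and 407 in Rosa26 cells with IFN-gamma (CPM). With vehicle, Fasn had 361 and 341 in sgRNA1 cells, 158 and 152 in sgRNA2 cells and 778 and 815 in Rosa26 cells. The 4 guide libraries lay below the Rosa26 libraries in both treatments, and sgRNA2 libraries were lowest. Fasn was lower in guide populations with IFN-gamma (-0.79 ± 0.04, adjusted p = 5.09e-12) and with vehicle (-1.77 ± 0.04, adjusted p = 3.25e-16), the greatest fall of any member in the vehicle comparison. With both guides as 1 group these had adjusted p-values of 0.223 and 0.0121. IFN-gamma lowered Fasn in Rosa26 cells (-0.94 ± 0.04, adjusted p = 1.67e-12), and in sgRNA1 (0.01 ± 0.05, adjusted p = 0.921) and sgRNA2 cells (0.09 ± 0.05, adjusted p = 0.129) no change was called. Acaca, the acetyl-CoA carboxylase that commits carbon to fatty acids, had 87.0 and 89.6 in sgRNA1 cells, 74.2 and 73.7 in sgRNA2 cells and 158 and 153 in Rosa26 cells with IFN-gamma. With vehicle, Acaca had 80.4 and 88.2 in sgRNA1 cells, 58.5 and 57.6 in sgRNA2 cells and 149 and 148 in Rosa26 cells. Acaca was lower in guide populations with IFN-gamma (-0.94 ± 0.04, adjusted p = 1.09e-12) and with vehicle (-1.09 ± 0.04, adjusted p = 2.27e-13), while IFN-gamma gave no call in Rosa26 cells (0.06 ± 0.05). These differences were kept with both guides as 1 group (adjusted p = 0.0017 and 0.00148). Of the 50-base words of Acaca, 30.4% occur in other genes, chiefly Gm5182. Acly, which splits citrate to supply acetyl-CoA, had 270.3 and 279 in sgRNA1 cells, 211 and 216 in sgRNA2 cells and 290.2 and 296 in Rosa26 cells with IFN-gamma. With vehicle, Acly had 271 and 258 in sgRNA1 cells, 155 and 155 in sgRNA2 cells and 425 and 454 in Rosa26 cells. Acly was lower in guide populations than in Rosa26, with IFN-gamma (-0.28 ± 0.04, adjusted p = 4.85e-06) and with vehicle (-1.12 ± 0.04, adjusted p = 6.14e-14). Their adjusted p-values with both guides as 1 group were 0.399 and 0.00631.

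**Figure D3:**
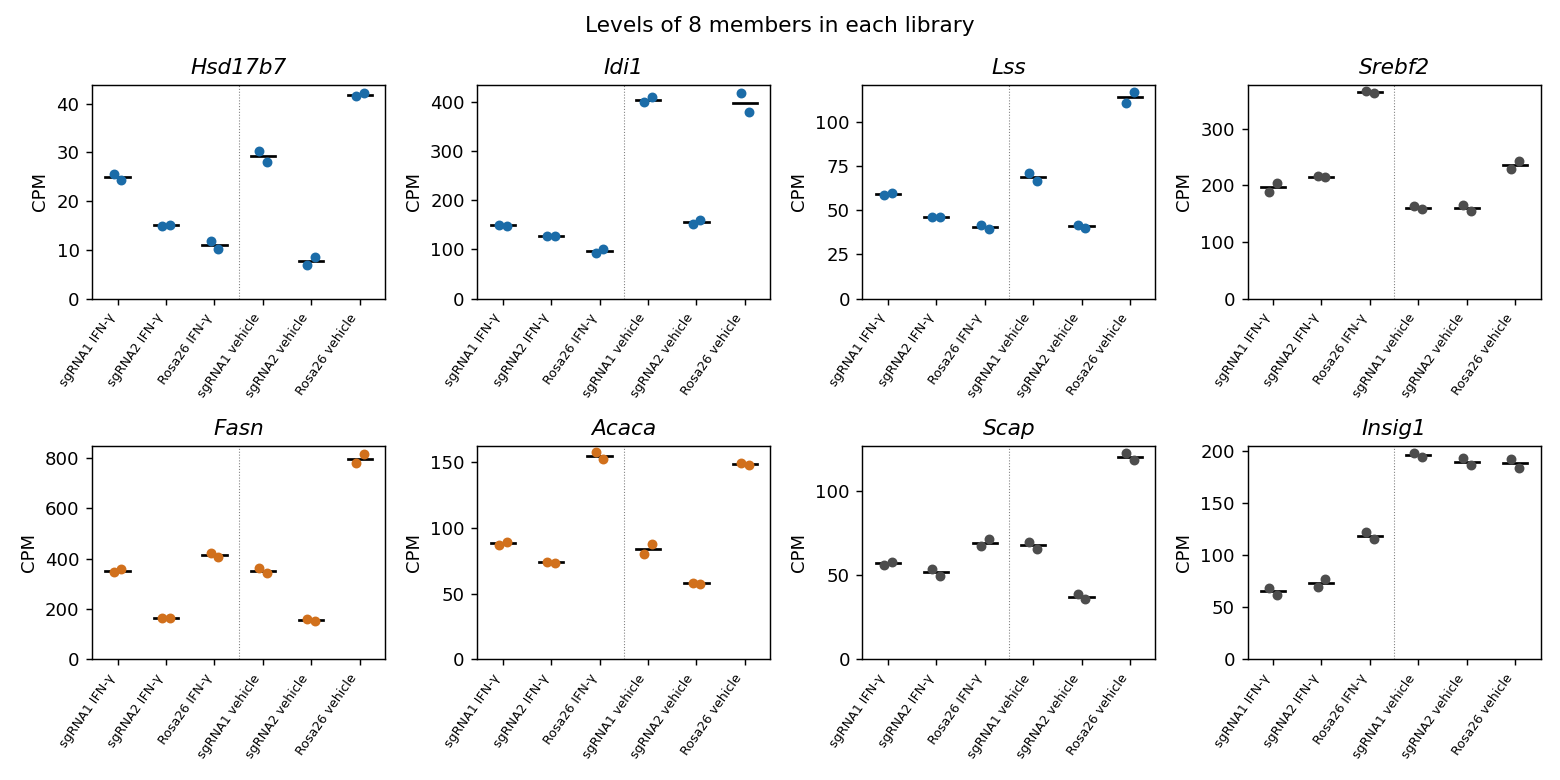
CPM of 8 members in each library (points) with the mean of each group (bars), IFN-gamma groups left of the dotted line and vehicle groups right of it. Fasn is lower in guide populations in both treatments. For Hsd17b7 and Lss, Rosa26 cells are the highest population with vehicle and the lowest with IFN-gamma, and Srebf2 is highest in Rosa26 cells with IFN-gamma.

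The desaturases and the elongase were lower in guide populations under both treatments. Scd1, a stearoyl-CoA desaturase, had 46.1 and 49.1 in sgRNA1 cells, 51.1 and 48.3 in sgRNA2 cells and 94.9 and 102 in Rosa26 cells with IFN-gamma (CPM). With vehicle, Scd1 had 52.8 and 54.3 in sgRNA1 cells, 58.0 and 60.0 in sgRNA2 cells and 80.4 and 89.4 in Rosa26 cells. All guide libraries were below Rosa26 for Scd1 with IFN-gamma (-1.02 ± 0.05, adjusted p = 7.7e-12) and with vehicle (-0.60 ± 0.05, adjusted p = 1.33e-08). These differences were kept with both guides as 1 group (adjusted p = 4.97e-05 and 0.00124). The small rise of Scd1 with IFN-gamma in Rosa26 cells (0.21 ± 0.06) was lost without Rosa26 vehicle replicate 1 (0.14, adjusted p = 0.0813) and without Rosa26 IFN-gamma replicate 2 (adjusted p = 0.0555). Scd2, the desaturase that is the member of highest level per kilobase of exon in all 6 groups, had 1009.9 and 1075 in sgRNA1 cells, 776 and 795 in sgRNA2 cells and 1446 and 1488 in Rosa26 cells with IFN-gamma. With vehicle, Scd2 had 1127 and 1126 in sgRNA1 cells, 1014 and 1013 in sgRNA2 cells and 1936 and 1914 in Rosa26 cells. Scd2 was lower in guide populations with IFN-gamma (-0.70 ± 0.03, adjusted p = 3.47e-12) and with vehicle (-0.85 ± 0.03, adjusted p = 2.68e-13). Elovl6, which lengthens palmitate to stearate, had 47.0 and 49.0 in sgRNA1 cells, 28.9 and 28.3 in sgRNA2 cells and 68.3 and 67.5 in Rosa26 cells with IFN-gamma. With vehicle, Elovl6 had 116 and 116 in sgRNA1 cells, 54.6 and 56.2 in sgRNA2 cells and 159 and 172 in Rosa26 cells. The Elovl6 difference between guide populations and Rosa26 with IFN-gamma was not called with both guides as 1 group (-0.83, adjusted p = 0.0796). IFN-gamma lowered Elovl6 in sgRNA1 (-1.27 ± 0.05), sgRNA2 (-0.95 ± 0.06) and Rosa26 cells (-1.28 ± 0.05). The interaction was small (0.17 ± 0.06, adjusted p = 0.0277) and was lost without any 1 of 4 libraries (adjusted p of 0.0567 to 0.181) and under DESeq2 (adjusted p = 0.093). Fads2, the delta-6 desaturase of polyunsaturated fatty acids, had 54.1 and 57.8 in sgRNA1 cells, 50.2 and 48.9 in sgRNA2 cells and 62.0 and 59.4 in Rosa26 cells with IFN-gamma. With vehicle, Fads2 had 62.0 and 64.0 in sgRNA1 cells, 29.6 and 33.5 in sgRNA2 cells and 105 and 114 in Rosa26 cells. The populations lay far apart with vehicle (-1.30 ± 0.05, adjusted p = 4.72e-13) and close together with IFN-gamma (-0.21 ± 0.05, adjusted p = 0.00277). That IFN-gamma difference was lost under upper quartile scaling (-0.12, adjusted p = 0.0611) and with both guides as 1 group (adjusted p = 0.593). The Fads2 interaction was 1.09 ± 0.08 (log2), which had an adjusted p of 0.0745 with both guides as 1 group. Its neighbour Fads1, the delta-5 desaturase, had log2 fold changes in guide populations of -0.58 with IFN-gamma and -0.64 with vehicle.

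Me1 and Acss2 were each called against most of their branch in some comparisons. Me1, the malic enzyme that supplies NADPH, had 69.9 and 69.8 in sgRNA1 cells, 78.9 and 78.9 in sgRNA2 cells and 61.6 and 63.2 in Rosa26 cells with IFN-gamma (CPM). With vehicle, Me1 had 62.2 and 66.6 in sgRNA1 cells, 54.3 and 55.5 in sgRNA2 cells and 75.0 and 75.9 in Rosa26 cells. Me1 was higher in guide populations with IFN-gamma (0.25 ± 0.04, adjusted p = 5.74e-05) and lower with vehicle (-0.34 ± 0.04, adjusted p = 1.37e-06), and its interaction (0.60 ± 0.06, adjusted p = 1.21e-07) was kept with both guides as 1 group (adjusted p = 0.0291). In that fit the difference of Me1 with IFN-gamma was not called (adjusted p = 0.0844). Other genes share 22.9% of its 50-base words. Acss2, the synthetase that makes acetyl-CoA from acetate, had 25.3 and 23.6 in sgRNA1 cells, 27.2 and 26.0 in sgRNA2 cells and 30.6 and 33.7 in Rosa26 cells with IFN-gamma. With vehicle, Acss2 had 26.4 and 25.2 in sgRNA1 cells, 35.3 and 32.5 in sgRNA2 cells and 28.9 and 30.5 in Rosa26 cells. Acss2 did not differ by the test between guide populations and Rosa26 with vehicle (-0.00 ± 0.07), since sgRNA1 libraries lay below and sgRNA2 libraries above the Rosa26 libraries. Its exons overlap Ggt7 and Gss on the other strand.

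The transcripts of SREBP-2, SREBP-1 and Scap were lower in the guide populations under both treatments. Srebf2, which encodes SREBP-2, had 189 and 204 in sgRNA1 cells, 216 and 214 in sgRNA2 cells and 367 and 364 in Rosa26 cells with IFN-gamma (CPM). With vehicle, Srebf2 had 164 and 158 in sgRNA1 cells, 166 and 155 in sgRNA2 cells and 229 and 243 in Rosa26 cells. All guide libraries were below Rosa26 with IFN-gamma (-0.83 ± 0.04, adjusted p = 6.25e-12) and with vehicle (-0.55 ± 0.04, adjusted p = 2.13e-09), and both were kept with both guides as 1 group (adjusted p = 8.77e-05 and 0.00116). Srebf2 was higher with IFN-gamma than with vehicle in sgRNA1 (0.29 ± 0.05), sgRNA2 (0.42 ± 0.05) and Rosa26 cells (0.63 ± 0.05), while 17 of 18 sterol genes fell in Rosa26 cells. Srebf1, which encodes the SREBP-1 forms, had 123 and 126 in sgRNA1 cells, 108 and 105 in sgRNA2 cells and 139.8 and 147 in Rosa26 cells with IFN-gamma. With vehicle, Srebf1 had 99.4 and 97.5 in sgRNA1 cells, 103 and 89.9 in sgRNA2 cells and 118 and 117 in Rosa26 cells. Srebf1 was lower in guide populations with IFN-gamma (-0.32 ± 0.05, adjusted p = 7.79e-06) and with vehicle (-0.27 ± 0.05, adjusted p = 7.49e-05), and higher with IFN-gamma than vehicle in Rosa26 cells (0.29 ± 0.05). The vehicle difference of Srebf1 had an adjusted p of 0.0522 with both guides as 1 group. Scap had 56.1 and 58.1 in sgRNA1 cells, 54.0 and 49.5 in sgRNA2 cells and 67.2 and 71.6 in Rosa26 cells with IFN-gamma. With vehicle, Scap had 70.0 and 65.7 in sgRNA1 cells, 38.6 and 35.7 in sgRNA2 cells and 123 and 118 in Rosa26 cells. Scap was lower in guide populations with IFN-gamma (-0.35 ± 0.05, adjusted p = 7.29e-06) and with vehicle (-1.26 ± 0.05, adjusted p = 3.05e-13). For Scap, the fit with both guides as 1 group gave adjusted p-values of 0.277 and 0.0044. IFN-gamma lowered it in Rosa26 (-0.80 ± 0.06) and sgRNA1 cells (-0.25 ± 0.06) and raised it in sgRNA2 cells (0.47 ± 0.06).

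The Insig genes, whose proteins retain Scap, moved in opposite directions with IFN-gamma in Rosa26 cells. Insig1, itself a target of SREBPs, had 68.2 and 62.3 in sgRNA1 cells, 69.9 and 77.0 in sgRNA2 cells and 122 and 115 in Rosa26 cells with IFN-gamma (CPM). With vehicle, Insig1 had 199 and 195 in sgRNA1 cells, 193 and 186 in sgRNA2 cells and 193 and 184 in Rosa26 cells. With vehicle the guide and Rosa26 libraries overlapped (0.04 ± 0.05, adjusted p = 0.496), and IFN-gamma lowered Insig1 in sgRNA1 (-1.59 ± 0.06), sgRNA2 (-1.37 ± 0.06) and Rosa26 cells (-0.66 ± 0.05). The fall was greater in the guide populations (-0.81 ± 0.07, adjusted p = 5.1e-09), and this interaction was kept with both guides as 1 group (adjusted p = 0.00855). Insig2 had 82.9 and 77.0 in sgRNA1 cells, 101 and 106 in sgRNA2 cells and 98.5 and 106 in Rosa26 cells with IFN-gamma. With vehicle, Insig2 had 67.1 and 69.3 in sgRNA1 cells, 122 and 118 in sgRNA2 cells and 59.7 and 61.1 in Rosa26 cells. Insig2 was higher in guide populations with vehicle (0.58 ± 0.05, adjusted p = 8.37e-09), chiefly in sgRNA2 cells, and with both guides as 1 group the adjusted p was 0.0675. IFN-gamma raised it in Rosa26 cells (0.76 ± 0.06, adjusted p = 6.57e-10) and lowered it in sgRNA2 cells (-0.21 ± 0.05, adjusted p = 0.00202). That fall in sgRNA2 cells was lost without sgRNA2 vehicle replicate 1 (adjusted p = 0.113) and without sgRNA2 IFN-gamma replicate 1 (adjusted p = 0.153). Stard4, a carrier that moves cholesterol between membranes, had 56.8 and 57.6 in sgRNA1 cells, 44.8 and 50.7 in sgRNA2 cells and 86.6 and 78.1 in Rosa26 cells with IFN-gamma. With vehicle, Stard4 had 69.0 and 72.8 in sgRNA1 cells, 59.5 and 57.1 in sgRNA2 cells and 108 and 99.9 in Rosa26 cells. Stard4 was lower in guide populations with IFN-gamma (-0.65 ± 0.06, adjusted p = 9.08e-09) and with vehicle (-0.69 ± 0.05, adjusted p = 3.13e-09), and both were kept with both guides as 1 group (adjusted p = 0.00318 and 0.0038).

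Other genes of sterol handling were read from lists made by textbook role. The shares of all tested genes called in each comparison stand beside each count. Of 9 genes that process or degrade SREBP and its partners, 2 were higher and 6 lower in guide populations with IFN-gamma (32.5% and 33.4% of all genes), and none was higher and 7 were lower with vehicle (34% and 33.7% of all genes). Mbtps1, the protease that first cuts SREBPs in the Golgi, was lower in guide populations with IFN-gamma (-0.81 ± 0.04) and with vehicle (-0.56 ± 0.04). Rnf145, a ubiquitin ligase of the endoplasmic reticulum, had, in CPM, 75.8 and 76.6 in sgRNA1 cells, 46.6 and 45.1 in sgRNA2 cells and 159 and 164 in Rosa26 cells with IFN-gamma, where guide populations were lower (-1.45 ± 0.04, adjusted p = 5e-15). Erlin1, a membrane protein that restrains SREBP activation, was lower with IFN-gamma in Rosa26 cells (-0.99 ± 0.06, adjusted p = 1.89e-11), as most sterol genes were. Its interaction was 1.40 ± 0.07 (log2). In sgRNA1 cells, where the sterol median was -0.48 with IFN-gamma, Erlin1 did not fall (mean 71.0 CPM with vehicle and 78.4 CPM with IFN-gamma). Of 17 genes of sterol uptake, storage, transport and efflux, 9 were higher and 5 lower with IFN-gamma in Rosa26 cells (36.4% and 34.1% of all genes). Abcg1, a sterol exporter and target of the liver X receptors, had, in CPM, 4.03 and 3.83 in sgRNA1 cells, 5.64 and 5.85 in sgRNA2 cells and 10.8 and 9.46 in Rosa26 cells with IFN-gamma. With vehicle, Abcg1 had 1.91 and 1.93 in sgRNA1 cells, 4.25 and 4.99 in sgRNA2 cells and 1.19 and 0.891 in Rosa26 cells. Abcg1 was higher with IFN-gamma in Rosa26 cells (3.28 ± 0.20, adjusted p = 7.25e-11), with a smaller response in guide populations (interaction -2.61 ± 0.25, adjusted p = 5.15e-08). Tmem97, an SREBP target that binds the cholesterol exporter NPC1, had, in CPM, 48.3 and 48.5 in sgRNA1 cells, 33.8 and 33.1 in sgRNA2 cells and 18.7 and 18.2 in Rosa26 cells with IFN-gamma. With vehicle, Tmem97 had 77.6 and 76.7 in sgRNA1 cells, 26.6 and 29.0 in sgRNA2 cells and 91.3 and 88.2 in Rosa26 cells. Tmem97 was lower with IFN-gamma in Rosa26 cells (-2.28 ± 0.06, adjusted p = 4.06e-16), and its interaction was positive (2.08 ± 0.07, adjusted p = 1.01e-13). With IFN-gamma all guide libraries were above Rosa26 (1.13 ± 0.06, adjusted p = 8.43e-12), with an adjusted p of 0.0613 with both guides as 1 group. Npc2, a lysosomal cholesterol carrier, was higher in guide populations with vehicle (1.21 ± 0.04, adjusted p = 3.56e-14), as were Abcg1 (1.51 ± 0.21) and Vldlr, a lipoprotein receptor (1.54 ± 0.18). Of the 3 genes of oxysterol formation and breakdown in the table, all 3 were higher in guide populations with vehicle (34% of all genes were), among them Hsd3b7 (0.69 ± 0.05), an enzyme of bile acid synthesis. Another was Cyp7b1 (1.41 ± 0.34), and the third averaged less than 1 CPM over all libraries.

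Of 10 genes that use isoprenoids outside sterols, 1 was higher and 6 were lower with IFN-gamma in Rosa26 cells, where 36.4% of all genes were higher and 34.1% lower. Pdss1, which makes the side chain of coenzyme Q, was lower there (-1.82 ± 0.11), and the interaction was positive (2.18 ± 0.14, adjusted p = 1.51e-10) but had an adjusted p of 0.0626 with both guides as 1 group. Fnta, the subunit shared by the farnesyl and geranylgeranyl transferases, was likewise lower in Rosa26 cells with IFN-gamma (-1.27 ± 0.05) and higher in guide populations with IFN-gamma (0.96 ± 0.04, adjusted p = 1.75e-12). Of 22 tested genes of fatty acid supply, activation, elongation and esterification, 6 were higher and 12 lower in guide populations with IFN-gamma (32.5% and 33.4% of all genes), and 4 higher and 14 lower with vehicle (34% and 33.7% of all genes). Mid1ip1, an activator of acetyl-CoA carboxylase, had, in CPM, 23.2 and 20.9 in sgRNA1 cells, 17.1 and 19.5 in sgRNA2 cells and 48.0 and 43.3 in Rosa26 cells with IFN-gamma. With vehicle, Mid1ip1 had 36.9 and 36.8 in sgRNA1 cells, 27.2 and 26.1 in sgRNA2 cells and 52.8 and 56.4 in Rosa26 cells. All guide libraries were below the Rosa26 libraries of the same treatment, with IFN-gamma (-1.18 ± 0.07, adjusted p = 3.11e-11) and with vehicle (-0.80 ± 0.06, adjusted p = 3.21e-09). Lpin1, a phosphatidate phosphatase, was lower in guide populations with IFN-gamma (-1.26 ± 0.07, adjusted p = 3.67e-11), and Fads3, a sphingoid base desaturase, was higher (1.32 ± 0.06, adjusted p = 9.64e-13). Pgd, an NADPH-making enzyme of the pentose phosphate pathway, had a positive interaction (1.27 ± 0.06, adjusted p = 2.01e-12). Of 12 tested genes of fatty acid oxidation, 8 were higher and 2 lower with IFN-gamma in Rosa26 cells (36.4% and 34.1% of all genes), and 2 higher and 6 lower in guide populations against Rosa26 with IFN-gamma (32.5% and 33.4% of all genes). Cpt1a, which lets fatty acids into mitochondria, had, in CPM, 26.9 and 31.3 in sgRNA1 cells, 29.2 and 30.9 in sgRNA2 cells and 64.7 and 64.8 in Rosa26 cells with IFN-gamma. With vehicle, Cpt1a had 22.0 and 21.5 in sgRNA1 cells, 39.6 and 38.8 in sgRNA2 cells and 27.1 and 28.6 in Rosa26 cells. IFN-gamma raised Cpt1a in Rosa26 cells (1.22 ± 0.07, adjusted p = 2.15e-11), and the guide populations had less of it than Rosa26 with IFN-gamma (-1.13 ± 0.06, adjusted p = 7.94e-12).

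The guide populations had the lower fatty acid branch relative to Rosa26 cells, and IFN-gamma left the lower sterol branch relative to vehicle in sgRNA1 and Rosa26 cells. Levels summed over each branch are led by its highest genes, such as Scd2. With IFN-gamma the 18 sterol genes summed to 1427 ± 3.12 CPM in sgRNA1, 1379 ± 3.4 CPM in sgRNA2 and 1415 ± 6.96 CPM in Rosa26 cells (mean ± SD, n = 2 each). With vehicle they summed to 2236 ± 14.9 CPM in sgRNA1, 1352 ± 2.34 CPM in sgRNA2 and 2559.7 ± 53.3 CPM in Rosa26 cells. The 3 populations lay between 1379 and 1427 CPM with IFN-gamma, and between 1352 and 2559.7 CPM with vehicle. The 10 fatty acid genes summed to 2052 ± 68.7 CPM in sgRNA1, 1527 ± 13.1 CPM in sgRNA2 and 2729.9 ± 25.6 CPM in Rosa26 cells with IFN-gamma. With vehicle these 10 summed to 2213 ± 14.2 CPM in sgRNA1, 1662 ± 0.807 CPM in sgRNA2 and 3859 ± 52.3 CPM in Rosa26 cells. The fatty acid sum stayed lower in both guide populations than in Rosa26 cells under either treatment.

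**Figure D4:**
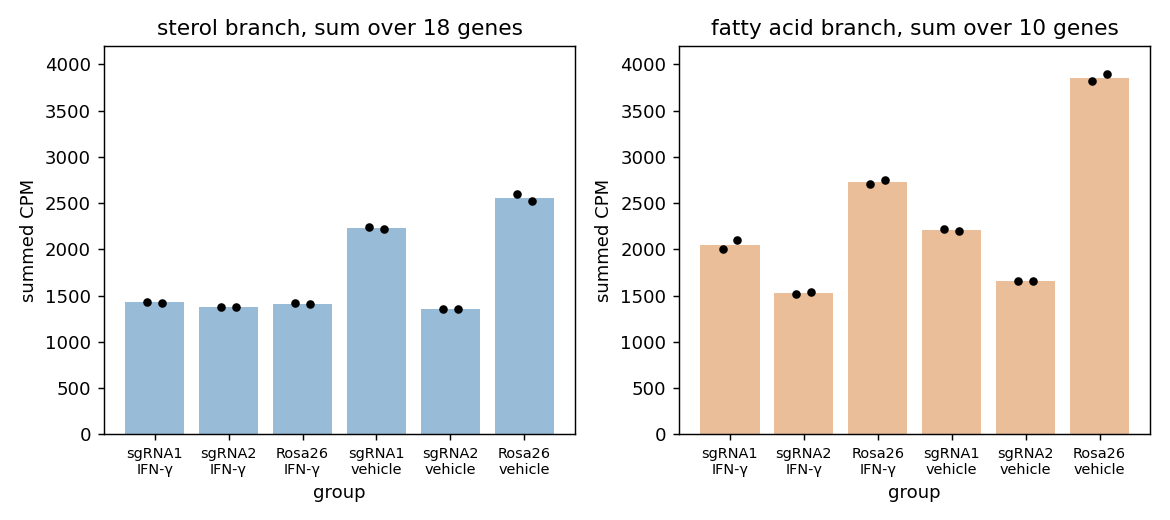
Summed CPM of the 18 sterol genes (left) and the 10 fatty acid genes (right) in each group, bars at the mean of 2 libraries and points for each library, axes starting at 0. The sterol sums of the 3 populations with IFN-gamma are nearly level, and the fatty acid sum is highest in Rosa26 cells in both treatments.

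The difference between branch medians (sterol minus fatty acid, log2) weights each gene alike. It has no test, and the SD of a branch difference between libraries of 1 group was 0.038. That SD does not measure the spread between genes of a branch or between populations. Guide populations against Rosa26 gave 0.62 with IFN-gamma and 0.45 with vehicle, which means that the fatty acid branch was the lower one. Each guide alone gave 0.45 (sgRNA1) and 0.65 (sgRNA2) with IFN-gamma, and 0.48 (sgRNA1) and 0.29 (sgRNA2) with vehicle. These comparisons share the Rosa26 libraries. With Stard4 and Insig1 added to the sterol branch and Srebf1 to the fatty acid branch, the sgRNA2 values were 0.37 with IFN-gamma and 0.11 with vehicle. IFN-gamma against vehicle gave -0.39 in sgRNA1 cells, -0.09 in sgRNA2 cells and -0.44 in Rosa26 cells, where the sterol branch was the lower one. The value in sgRNA2 cells changed sign, to 0.05, with the mean of each branch in place of its median.

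**Figure D5:**
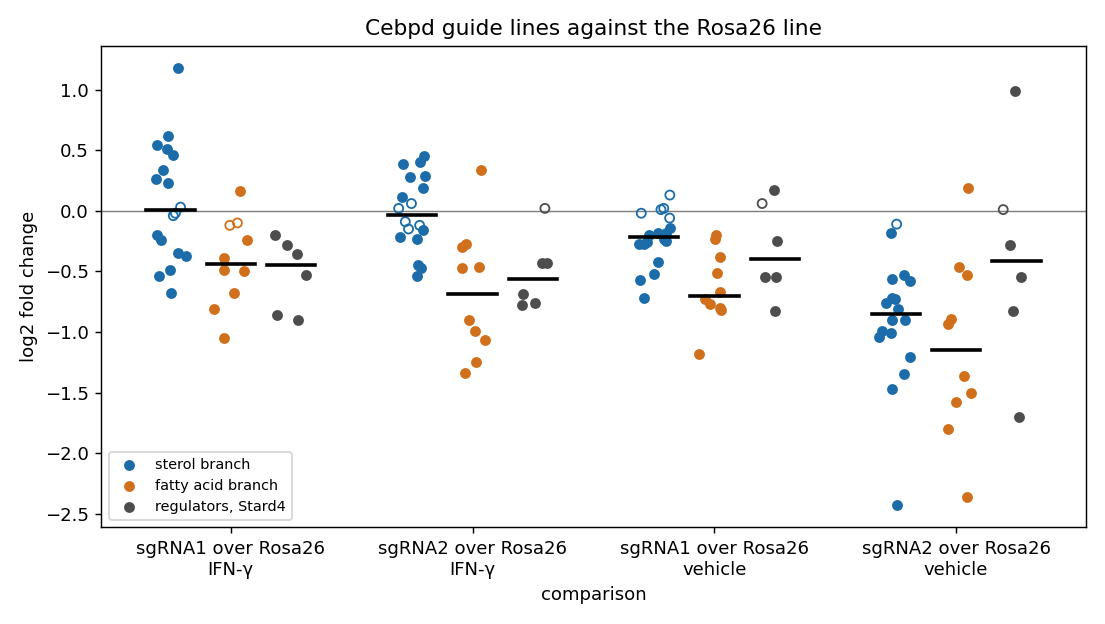
Log2 fold change of each Cebpd guide population over Rosa26 cells, with IFN-gamma (left pair) and vehicle (right pair), for each member (sterol branch blue, fatty acid branch orange, the other 6 grey; filled where called at an adjusted p below 0.05), bars at the median. Fatty acid medians lie below sterol medians in all 4 comparisons, by 0.29 to 0.65, and with wider branches by as little as 0.11 (sgRNA2 with vehicle).

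The guide populations differed from each other in most members with vehicle. Against Rosa26 with vehicle, sgRNA1 cells had 1 member higher and 27 lower (52.5% of all genes called, 25.6% higher and 26.9% lower; 4 and 19 under upper quartile scaling) and sgRNA2 cells 2 higher and 30 lower (73.3% called, 38.3% higher and 35% lower; 3 and 28 under upper quartile scaling). With IFN-gamma, sgRNA1 cells had 9 higher and 20 lower (64.9% called, 31.6% higher and 33.3% lower) and sgRNA2 cells 8 higher and 20 lower (61.8% called, 30.2% higher and 31.6% lower). Tested directly with vehicle, sgRNA2 cells were lower than sgRNA1 cells in 27 members and higher in 2 (62.3% of all genes called, 33.2% higher and 29.1% lower), with a sterol median of -0.65 and a fatty acid median of -0.52. With IFN-gamma the direct difference had 9 members higher and 15 lower in sgRNA2 cells (47.9% called, 23.4% higher and 24.5% lower) and medians of -0.12 and -0.22. Fasn was lower in sgRNA2 than in sgRNA1 cells under IFN-gamma (-1.10 ± 0.05, adjusted p = 2.22e-11) and under vehicle (-1.18 ± 0.05, adjusted p = 6.09e-13), whereas Scd1 was not called in either (0.06 ± 0.06 and 0.14 ± 0.06). Idi1 was lower in sgRNA2 than in sgRNA1 cells with vehicle (-1.37 ± 0.05, adjusted p = 4.78e-13), and Srebf2 was not called there (-0.00 ± 0.05). The share of ribosomal protein counts was also highest in sgRNA2 cells with vehicle, and its part in these differences was not tested.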

How the data were processed

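RNA from 12 libraries of 4T1 cells was sequenced, 2 libraries in each of 6 groups, after a library kit that does not mark strand, per the labels' protocols. The authors deposited raw read counts per gene. The submitters' processing notes list STAR 2.4.0, HTSeq, DESeq2 1.10 and the mm10 build, with no role for each, and how reads were assigned to genes was not stated. Each sample's group was read from its title together with its treatment entry. The treatment protocol names IFN-gamma for every sample, so the vehicle samples were read from those entries.

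Counts were analysed in R 4.3.3 with edgeR 4.0.16. Genes were kept with filterByExpr (minimum count 10, minimum total 15), which left 13601 of 16283, and library sizes were scaled by TMM. A quasi-likelihood model with 1 term per group (6 residual degrees of freedom, common biological coefficient of variation 4.67%) gave every comparison, with Benjamini-Hochberg adjustment over all tested genes. The SE of a log2 fold change is its size divided by the square root of its F statistic. The mean of the 2 guides has equal weights on the log2 scale. The branch comparison is the difference between the medians of fitted log2 fold changes.

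Alternatives were DESeq2 1.42.0, RLE (median ratio) and upper quartile scaling, no filter on low counts, a replicate block, both guides as 1 group of 4 libraries, each of the 12 libraries left out in turn, the mean in place of the median for each branch, wider branches (Stard4 and Insig1 with the sterol branch, Srebf1 with the fatty acid branch) and an exact sterol regulatory element. The code was tested on simulated counts. Libraries of 1 group differed by more than sampling noise (chi-square per degree of freedom 2.52 to 6.11), so none was taken for a copy. Gene structures and shared 50-base words came from GENCODE vM21 on GRCm38, of which mm10 is the browser name, and promoters from RefSeq on GRCm38.p6.

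The members and the other lists were chosen with earlier results of these data known, so their counts are descriptions. Values in every library are printed for the members with the greatest called fold changes in each branch, for those called against most of their branch, for the regulators and for a fixed set of pathway enzymes (Fasn, Acaca, Scd1, Scd2, Hmgcs1, Sqle, Acat2 and Acly). The promoters shown were chosen after their values were seen.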

Additional observations from a re-analysis of the deposited data

Results flagged for a closer look

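The response to IFN-gamma differed between the Cebpd guide populations (mean of both) and Rosa26 cells for 28 of the 34 members by edgeR's test of the interaction. Among all tested genes 63.9% were called in this test. Values are log2, the response of guide populations minus that of Rosa26 cells.

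In the sterol branch the interaction was greatest for Hsd17b7 (2.29), Lss (1.47), Idi1 (1.17) and Cyp51 (1.04). Mvk (0.70), Sc5d (0.68), Acat2 (0.67), Msmo1 (0.63) and Nsdhl (0.61) lay in the middle. Sqle (0.49), Pmvk (0.41), Mvd (0.34), Fdps (0.17) and Hmgcs1 (0.15) were the smallest positive ones, and Tm7sf2 (-0.40) was negative. In the fatty acid branch it was positive for Fads2 (1.09), Fasn (0.99), Acly (0.84), Me1 (0.60), Elovl6 (0.17), Acaca (0.15) and Scd2 (0.15), and negative for Scd1 (-0.42) and Acss2 (-0.33). Among the others it was positive for Scap (0.91) and negative for Insig1 (-0.81), Insig2 (-0.75) and Srebf2 (-0.28). Several of the smallest were lost in single alternatives: Acaca under DESeq2 (adjusted p = 0.102) and without any 1 of 5 libraries (up to 0.142), Hmgcs1 without Rosa26 vehicle replicate 1 (0.0516) or Rosa26 IFN-gamma replicate 1 (0.0521), Fdps without Rosa26 IFN-gamma replicate 2 (0.0791) and Scd2 without Rosa26 IFN-gamma replicate 1 (0.0707). Acss2 was lost without sgRNA2 vehicle replicate 1 (0.0513) or Rosa26 IFN-gamma replicate 2 (0.0507), and Elovl6 without any 1 of 4 libraries (up to 0.181). Upper quartile scaling also lost Acaca, Hmgcs1, Fdps, Scd2 and Elovl6. With both guides as 1 group, Lss, Cyp51, Me1, Scd1 and Insig1 were called, 14.7% of the members beside 19.6% of all genes.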

How the results depend on the processing

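No member's called value changed sign under any of the alternatives run. With both guides as 1 group, the members called against Rosa26 fell to 19 with vehicle (beside 32.3% of all genes) and 10 with IFN-gamma (beside 32.1%). They fell to 20 for IFN-gamma in Rosa26 cells (beside 42.8% of all genes) and to 5 for the interaction (beside 19.6%). In that fit the difference between guides counts as error. With a replicate block, 407 of 408 member values stayed on their side of the threshold and the call of Hsd17b7 for IFN-gamma in sgRNA1 cells was lost (adjusted p = 0.0529). Libraries with the same number did not deviate together (correlations of -0.065 to 0.071 over 15 pairs of groups). This cannot tell whether libraries of the same number were prepared together.

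Leaving out 1 library at a time gave 29 to 31 members called between guides and Rosa26 with vehicle and 29 to 32 with IFN-gamma. For IFN-gamma it gave 21 to 26 in sgRNA1, 23 to 26 in sgRNA2 and 29 to 32 in Rosa26 cells, and 25 to 28 for the interaction. With all libraries kept, the shares of all genes called were, in the same order, 67.7%, 65.9%, 61.4%, 59.7%, 70.4% and 63.9%. With 1 library left out, the difference between branch medians ranged over 0.41 to 0.47 for guides against Rosa26 with vehicle, 0.58 to 0.68 with IFN-gamma and 0.31 to 0.42 for the interaction. It ranged over 0.39 to 0.58 (vehicle) and 0.39 to 0.54 (IFN-gamma) for sgRNA1 against Rosa26, 0.63 to 0.74 (IFN-gamma) for sgRNA2 against Rosa26, and -0.18 to -0.08 (vehicle) and 0.06 to 0.14 (IFN-gamma) for sgRNA2 against sgRNA1.

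With branch means it was 0.31 and 0.57 for guides against Rosa26 (vehicle and IFN-gamma), and -0.30, 0.05 and -0.39 for IFN-gamma in sgRNA1, sgRNA2 and Rosa26 cells. It was 0.27 for the interaction, 0.40 and 0.49 for sgRNA1 against Rosa26 (vehicle and IFN-gamma), 0.22 for sgRNA2 against Rosa26 with vehicle, and -0.18 and 0.17 for sgRNA2 against sgRNA1 (vehicle and IFN-gamma). With wider branches it was 0.35 and 0.50 for guides against Rosa26 (vehicle and IFN-gamma), 0.30 for the interaction, 0.11 for sgRNA2 with vehicle, and 0.36 and 0.37 for sgRNA1 and sgRNA2 with IFN-gamma. The cause of these changes was not tested. The exact sterol regulatory element was in 0 member promoters. With 2 libraries per group from 3 populations, differences between populations rest on 1 population per guide.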
